A study of Mus musculus with 6 samples.

Results

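Chemokines are small secreted proteins that steer leukocytes, and their receptors are G protein-coupled receptors on the cells that respond. Arrays of 6 mouse livers measured 55 chemokine and chemokine receptor genes among the 22180 genes tested. They were chosen by symbol (Ccl, Cxcl, Cx3cl and Xcl ligands, Ccr, Cxcr and Cx3cr receptors, the atypical receptors Ackr1 to Ackr4, and Ccrl2), leaving out Cxcr2 and Xcr1. Each gene was read from the probe set with the highest mean over the 6 arrays among those that name that gene alone. The 55 were 34 ligands, 16 signalling receptors and 5 atypical receptors, Ccrl2 included. All 55 entered the comparison, because no filter on level was used. Another 11 genes whose symbols match the rule, among them Ccl19 and the Ccl21 genes, had no such probe set and were not analysed here.

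The livers came from male C57BL/6 mice, 1 array per mouse. In 3 mice, numbers 13, 21 and 6, the liver expressed green fluorescent protein (GFP), and in 3 others, numbers 26, 28 and 31, it expressed Sonic Hedgehog (SHH), the secreted ligand of the Hedgehog pathway. Per the design text, genes were delivered by hydrodynamic transfection, a rapid injection of DNA that mainly reaches hepatocytes. The design concerned fibrosis and its gene expression under hepatic SHH. Age, time since delivery, promoter and the species of the introduced SHH are not in the labels. Values per mouse are listed throughout in the order 13, 21, 6 for GFP and 26, 28, 31 for SHH.

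The family is usually described by which receptor binds which ligand. In liver, Ccl2 and its receptor Ccr2 are known for bringing monocytes in from blood, Cxcl1 and its relatives for attracting neutrophils, Cxcl9, Cxcl10 and Cxcl11 for attracting T cells that carry Cxcr3 after interferon-gamma, and Cxcl16 for Cxcr6-bearing T and natural killer T cells. Atypical receptors bind chemokines without G protein signalling, and several of them remove ligand from tissue.

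The promoters of 4 genes are shown because the genes behind them lie close together in sequence or function and yet differed widely in these livers. Each is the 250 bases before the transcription start, from the RefSeq promoter table of build GRCm38.p6, written 5′ to 3′ on the gene's strand. Capitals mark a kappaB-type match (GGGNNNTTCC) or, in Cxcl10, also an interferon response element-type match (GAAANNGAAA), searched on both strands. Cxcl1 lies at chr5:90890995-90891244 (plus strand), Cxcl2 at chr5:90903649-90903898 (plus), Cxcl3 at chr5:90785851-90786100 (plus) and Cxcl10 at chr5:92348890-92349139 (minus).
Cxcl1: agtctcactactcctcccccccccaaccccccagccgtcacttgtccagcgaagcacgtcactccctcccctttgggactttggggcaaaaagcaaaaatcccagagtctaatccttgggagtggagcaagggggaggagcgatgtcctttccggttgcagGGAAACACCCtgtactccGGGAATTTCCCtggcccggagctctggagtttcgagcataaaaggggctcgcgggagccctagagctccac
Cxcl2: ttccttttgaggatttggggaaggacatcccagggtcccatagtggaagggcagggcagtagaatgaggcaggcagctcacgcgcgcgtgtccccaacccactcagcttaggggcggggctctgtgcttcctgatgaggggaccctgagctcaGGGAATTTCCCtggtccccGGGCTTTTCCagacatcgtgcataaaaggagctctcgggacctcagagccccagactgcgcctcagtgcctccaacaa
Cxcl3: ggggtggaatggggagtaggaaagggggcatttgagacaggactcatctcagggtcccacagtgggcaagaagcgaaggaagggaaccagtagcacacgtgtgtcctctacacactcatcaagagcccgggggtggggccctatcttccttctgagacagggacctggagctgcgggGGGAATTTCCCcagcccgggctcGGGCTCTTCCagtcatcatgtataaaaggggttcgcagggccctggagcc
Cxcl10: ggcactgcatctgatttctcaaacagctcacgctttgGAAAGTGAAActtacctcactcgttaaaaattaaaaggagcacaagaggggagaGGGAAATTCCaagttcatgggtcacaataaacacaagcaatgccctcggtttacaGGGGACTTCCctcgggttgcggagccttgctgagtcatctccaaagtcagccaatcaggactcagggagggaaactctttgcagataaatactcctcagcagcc
The neutrophil attractants Cxcl1, Cxcl2 and Cxcl3 shared the 11-base run GGGAATTTCCC, which is a kappaB-type match on each strand at once, and which began 71, 97 and 73 bases before the start. That run was found in 14 of 32851 windows (0.0426%), and these 3 were the members that held it. A kappaB-type match stood in 19.1% of the 47 windows available for 41 members, against 4.65% of all windows. Of the 8 members with a window whose SHH livers all lay above the GFP livers, 1 (12.5%), Ccl9, held it. Ccl2 and Ccr10, whose SHH livers also all lay above, had no window and were not searched. The interferon response element-type match stood in 4.26% of member windows, those of Cxcl10 and Cxcl14, against 2.98% of all windows. Another pattern, the STAT-type TTCNNNGAA, stood in 8.51% against 7.02%. Such a match is a description of letters and does not show that a factor binds.

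Arrays differed little in general signal. Array medians lay between 4.32 and 4.40 on the log2 scale, and Pearson correlations over all probe sets were 0.971 to 0.981 between the groups and 0.975 to 0.979 within them. Shh itself ran from 3.43 to 3.86 in GFP and from 4.28 to 4.63 in SHH livers. Hhip, a Hedgehog-induced gene, was 2.62-fold higher (5.29 to 5.45 against 6.48 to 7.01). Hepatocyte markers, 11 of 12 measured, averaged 11.87 to 11.90 in GFP and 11.87 to 11.96 in SHH livers, so the defining genes of the labelled tissue were strongly present in both. No detection calls were used. Of the members, 28 lay above the array median on every array, 5 below the lower quartile (3.13 to 3.22) on every array, 16 below the median but not all below that quartile, and 6 crossed the median. Array signals tend to understate changes of dim genes.

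More members were higher than lower in SHH livers. Means were higher for 34 of 55 members, against 43.8% of all genes, and the median difference was 0.09 on the log2 scale, against -0.03 over all genes. No member passed the threshold of 0.05 after Benjamini-Hochberg adjustment over all genes in limma, where 0.0% of genes passed in each direction (at an unadjusted p under 0.05, 738 genes were higher and 889 lower), and the smallest adjusted p among members was 0.504. At an unadjusted p under 0.05 there were 10 members higher and 4 lower, which is 18.2% and 7.27% of members, against 3.33% and 4.01% of all genes. All SHH livers lay above all GFP livers for 10 members (18.2%, against 5.26% of all genes) and below them for 5 (9.09%, against 7.25%). The members without overlap above were the ligands Ccl2, Ccl6, Ccl8, Ccl9 and Cxcl14 and the receptors Ccr1, Ccr2, Ccr8, Ccr10 and Cxcr6. Those below were the ligands Ccl20 and Cxcl3, the receptor Ccr4 and the atypical receptors Ackr3 and Ackr4. The median depended on 1 liver: without SHH 31 it was -0.00096, and 6 members (10.9%, against 2.82% of all genes) were then higher at an unadjusted p under 0.05. The 4 lower members, 7.27% against 4.01%, rested on single livers. They became 1 (1.82%) without GFP 13 or SHH 28, against 2.85% and 3.44% of all genes, and 2 (3.64%) without GFP 21 or SHH 26, against 4.21% and 4.0%, so these shares lay below that of all genes. With 1 liver fewer, separation is easier for every gene: it was 17 members upward without SHH 28 (30.9%, against 9.22% of all genes) and 9 downward without SHH 31 (16.4%, against 13.6%).

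**Figure D1:**
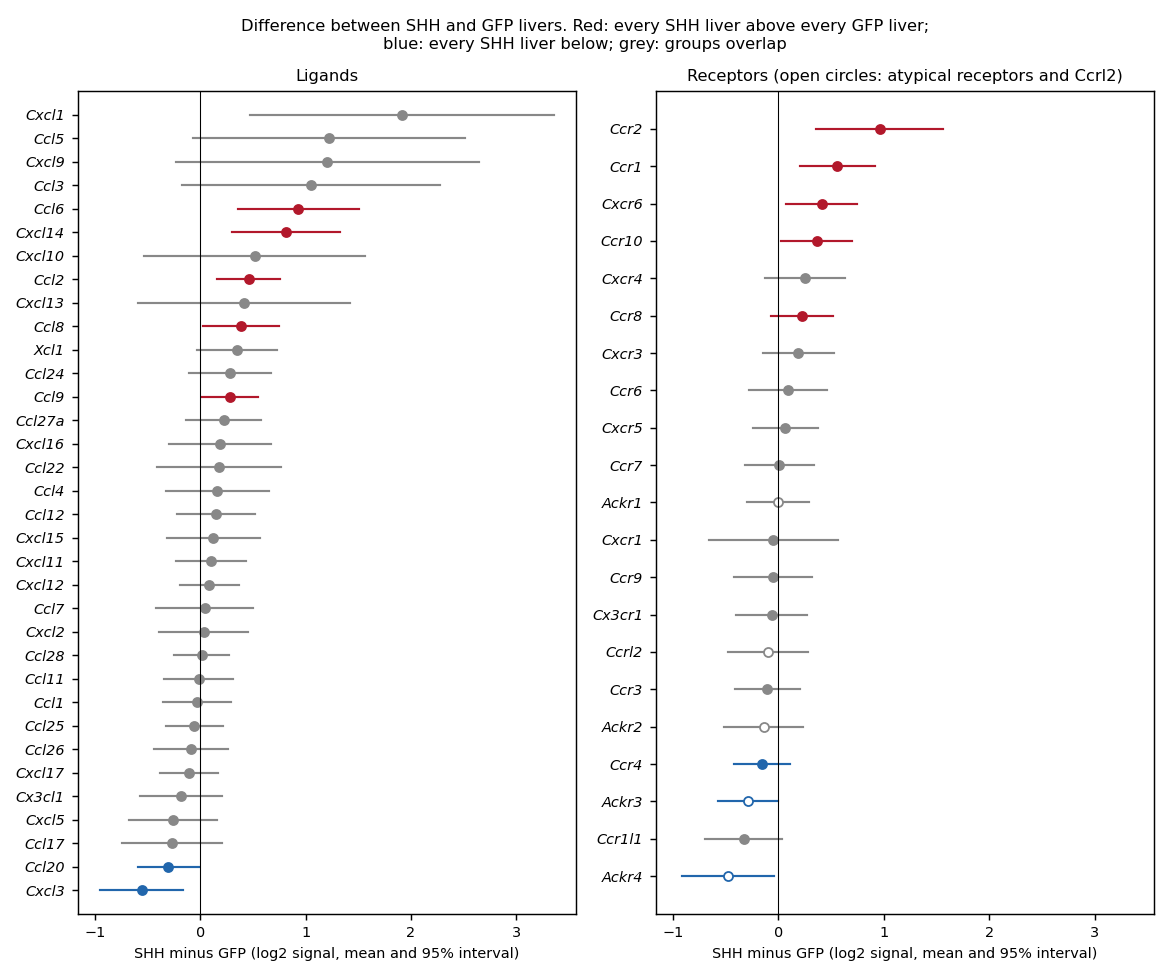
Difference between SHH and GFP livers for all 34 ligands (left) and 21 receptors (right), as mean difference of log2 signals (point) with its 95% interval from the limma fit (line), n = 3 per group. Red marks the 10 genes whose SHH livers all lay above the GFP livers, blue the 5 whose SHH livers all lay below, grey the rest; Cxcl1 has the largest difference (1.91) and a wide interval, and no atypical receptor has a difference above 0.

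The monocyte axis was higher on both sides of the pair. Ccr2, the receptor that lets inflammatory monocytes leave the marrow, was 3.97, 3.93 and 3.59 in the GFP livers against 4.13, 5.03 and 5.23 in the SHH livers. The groups did not overlap, and SHH 26 lay only just above the GFP livers. The difference was 0.96 (1.95-fold; 3.83 ± 0.21 against 4.80 ± 0.59, SD, n = 3), with a 95% interval of 0.36 to 1.56 and limma adjusted p = 0.504. Without SHH 31 it was 0.75, and without SHH 26 it was 1.30. In the setting without SHH 26, Ccr2 was among 30 genes that passed upward over all genes (limma adjusted p = 0.0414 for Ccr2). Ccr2 was the only member to pass in any setting tried. Its ligand Ccl2 was 4.87, 5.11 and 4.95 in GFP and 5.27, 5.53 and 5.51 in SHH livers. That is a separation by a small step, 0.46 on the log2 scale (1.38-fold; 95% interval 0.16 to 0.76; adjusted p = 0.521).

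The other Ccr2 ligands did not share this pattern. Ccl7, which also reaches Ccr1 and Ccr3, was 5.68, 5.53 and 5.73 in GFP and 5.86, 5.21 and 6.00 in SHH livers, and the groups overlapped with SHH 28 lowest of all. Ccl12, a mouse Ccr2 ligand, was 2.21, 2.37 and 2.56 against 2.33, 2.44 and 2.82, all under the lower quartile of their arrays. Their differences were 0.04 (95% interval -0.42 to 0.50) and 0.15 (-0.22 to 0.52), and without SHH 31 they were -0.11 and 0.0058. Ccl2, Ccl7, Ccl11, Ccl12, Ccl8 and Ccl1 are neighbours in the RefSeq gene order, and of these 6 only Ccl2 and Ccl8 separated the groups.

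Ccr1, a receptor of neutrophils, monocytes and other myeloid cells, was 2.65, 2.64 and 2.24 in GFP and 2.96, 3.27 and 2.98 in SHH livers. Every SHH liver lay above every GFP liver, although 5 of the 6 values were under the lower quartile of their arrays. The difference was 0.56 (1.48-fold; 95% interval 0.20 to 0.92; limma adjusted p = 0.514). Of its 6 measured ligands, all 6 had higher means, and Ccl6 and Ccl9 separated the groups.

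Ccl6, a mouse CC chemokine of myeloid cells, was 4.64, 4.996 and 4.68 in GFP and 5.19, 5.61 and 6.30 in SHH livers. SHH 31 was highest, and the lowest SHH liver (26) stood above the highest GFP liver. The difference of 0.93 (1.91-fold; 4.77 ± 0.20 against 5.70 ± 0.56, SD, n = 3) had a 95% interval of 0.35 to 1.51 and limma adjusted p = 0.504. Its gene neighbour Ccl9, a related Ccr1 ligand, was 9.70, 9.82 and 9.68 in GFP against 9.98, 10.07 and 9.99 in SHH livers. Here the step was small (0.28; 95% interval 0.01 to 0.54) and the SHH livers were nearly alike.

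The remaining Ccr1 ligands, products of activated T cells, natural killer cells and macrophages, were uneven among SHH livers. Ccl5 was 5.20, 5.78 and 5.35 in GFP and 6.56, 5.31 and 8.12 in SHH livers. Ccl3 was 4.12, 3.44 and 4.42 in GFP and 4.35, 4.28 and 6.51 in SHH livers. For both, SHH 31 stood far above all other livers and SHH 28 lay within the GFP range, so the groups overlapped. The differences were 1.22 for Ccl5 (95% interval -0.06 to 2.51) and 1.05 for Ccl3 (-0.17 to 2.28), and without SHH 31 they were 0.50 and 0.32. Ccl4, closely related to Ccl3, was 4.67, 4.57 and 4.48 in GFP and 4.61, 4.34 and 5.25 in SHH livers. Its difference was 0.16, or -0.10 without SHH 31, and again SHH 31 was the highest of the 6. Ccl5, Ccl9, Ccl6, Ccl3 and Ccl4 are neighbours, and all 5 had higher means, with a median difference of 0.93.

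**Figure D2:**
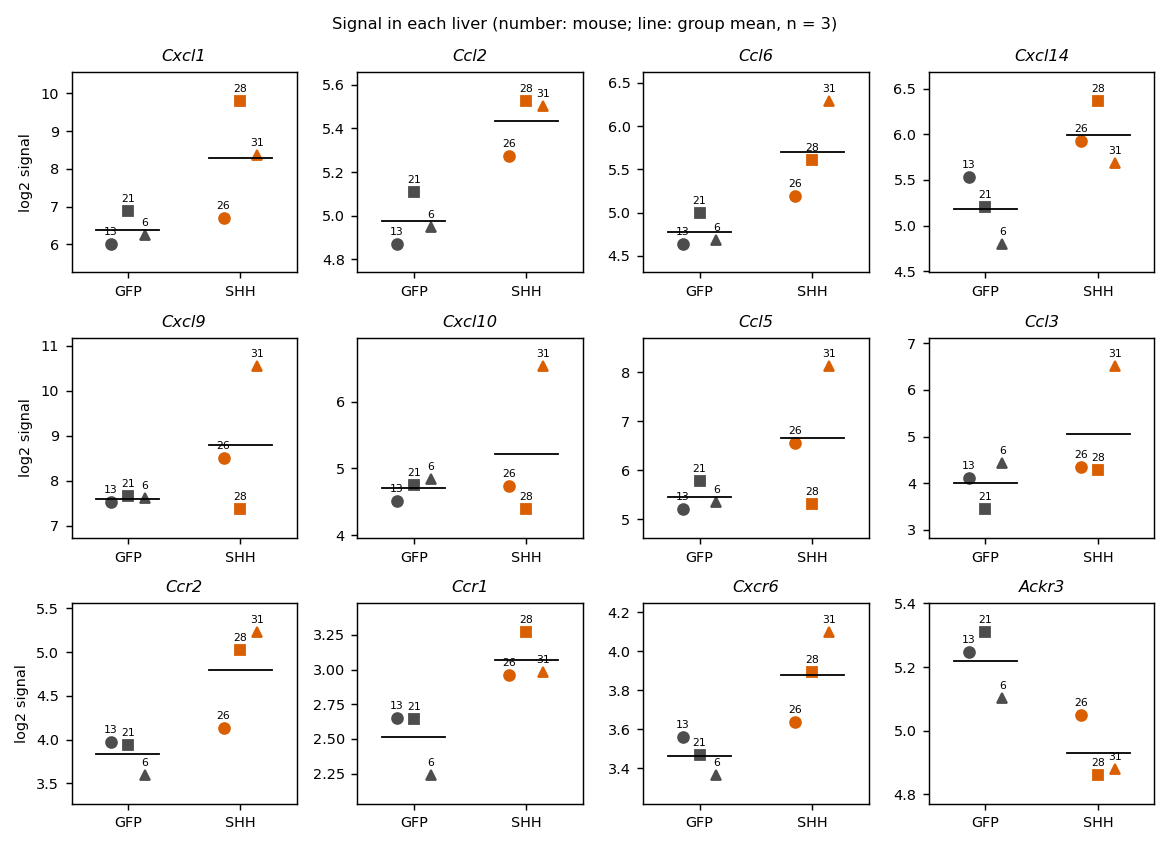
Log2 signal of 12 members in each liver, GFP in grey and SHH in orange, with the mouse number beside each point and the group mean as a line (n = 3); each panel has its own axis. Ccl2, Ccl6, Cxcl14, Ccr2, Ccr1 and Cxcr6 separate the groups upward and Ackr3 downward, Cxcl1 peaks in SHH 28 (9.80), and Cxcl9, Cxcl10, Ccl5 and Ccl3 peak in SHH 31 (10.54, 6.53, 8.12 and 6.51).

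Cxcl1 had the largest difference of the 55 members. The GFP livers read 6.02, 6.88 and 6.25 and the SHH livers 6.70, 9.80 and 8.37. SHH 28 and SHH 31 lay well above all GFP livers, while SHH 26 lay below GFP 21, so the groups overlapped. The mean difference was 1.91 (3.77-fold; 6.38 ± 0.44 against 8.29 ± 1.55, SD, n = 3), with a 95% interval of 0.47 to 3.35 and limma adjusted p = 0.576. It was 1.16 without SHH 28 and 2.71 without SHH 26.

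The close relatives of Cxcl1, whose promoters hold the same 11-base run shown above, did not show its upward difference. Both read at low levels, where array signals tend to understate changes, so a like change in them could be missed. Cxcl2 was 4.18, 3.72 and 3.94 in GFP and 3.65, 4.03 and 4.26 in SHH livers, below the median of every array. Its groups were fully mixed, with a difference of 0.03 (95% interval -0.39 to 0.46). Cxcl3 was 1.74, 2.18 and 2.14 in GFP and 1.41, 1.73 and 1.26 in SHH livers. Every SHH liver lay below every GFP liver, by 0.55 (95% interval -0.95 to -0.16 for SHH minus GFP), though all values were under the lower quartile of their arrays. Cxcl5, another neutrophil attractant beside them in the genome, was 3.98, 4.44 and 3.98 against 4.17, 3.79 and 3.64, and differed by -0.26 (-0.68 to 0.16). Cxcl15, the fifth of these neighbours, differed by 0.12 with overlapping groups. Cxcr1, a neutrophil receptor, was 3.17 to 3.97 in GFP and 3.11 to 4.002 in SHH livers.

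The interferon-induced Cxcr3 ligands stood out in SHH 31. Cxcl9 was 7.52, 7.65 and 7.61 in GFP and 8.49, 7.36 and 10.54 in SHH livers. Cxcl10 was 4.51, 4.75 and 4.85 in GFP and 4.74, 4.39 and 6.53 in SHH livers. For both, SHH 28 was the lowest of the 6 livers and SHH 31 the highest, while SHH 26 was above the GFP livers for Cxcl9 alone. The differences were 1.21 for Cxcl9 (95% interval -0.23 to 2.65; 2.31-fold) and 0.52 for Cxcl10 (-0.53 to 1.57), and without SHH 31 they were 0.33 and -0.14. Cxcl11, the third ligand by name, was 6.07, 6.02 and 5.85 against 5.86, 6.12 and 6.28, a difference of 0.10. Arrays read RNA, and whether mice of this strain make working Cxcl11 protein was not examined. The receptor of these ligands, Cxcr3, found on activated T and natural killer cells, was 4.57, 4.96 and 4.84 in GFP and 4.90, 5.16 and 4.89 in SHH livers. It overlapped, was highest in SHH 28 rather than SHH 31, and differed by 0.19 (-0.14 to 0.52).

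Cxcr6 was the one CXC receptor that separated the groups. It was 3.56, 3.47 and 3.37 in GFP and 3.64, 3.90 and 4.10 in SHH livers. The lowest SHH liver lay just above the highest GFP liver. The difference was 0.41 (1.33-fold; 95% interval 0.08 to 0.75; limma adjusted p = 0.612). Its ligand Cxcl16, a membrane-bound chemokine of sinusoidal cells and macrophages, was 5.62, 5.70 and 5.96 in GFP and 5.75, 5.65 and 6.45 in SHH livers. Only SHH 31 exceeded the GFP range, and the difference of 0.19 became -0.06 without it.

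The Cxcl12 axis, which retains cells in marrow and tissue, was split. Cxcl12 was 9.29, 9.08 and 9.05 in GFP and 9.20, 9.20 and 9.30 in SHH livers, with a difference of 0.09 (95% interval -0.20 to 0.37). Its signalling receptor Cxcr4 was 5.47, 5.02 and 5.39 against 5.36, 5.48 and 5.80, a difference of 0.25 (-0.13 to 0.63). For both genes the groups overlapped. Ackr3, the atypical receptor that takes up Cxcl12 and Cxcl11, was 5.25, 5.31 and 5.10 in GFP and 5.05, 4.86 and 4.88 in SHH livers. Every SHH liver lay below every GFP liver, and the difference of -0.29 had limma adjusted p = 0.675.

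Ackr4, which scavenges Ccl19, Ccl21 and Ccl25, was 3.82, 3.48 and 3.48 in GFP and 2.73, 3.21 and 3.42 in SHH livers. All SHH livers were lower, SHH 26 by the most, and the difference was -0.47 (95% interval -0.91 to -0.04; adjusted p = 0.663), or -0.28 without SHH 26. Ackr2, a scavenger of inflammatory CC chemokines, was 5.46, 5.43 and 5.21 against 5.31, 4.92 and 5.46 (difference -0.14). Ackr1, a chemokine carrier of red cells and venules, was 4.16, 4.06 and 4.12 against 3.93, 4.17 and 4.23 (-0.01). Ccrl2, which binds chemerin, was 4.29 to 4.47 against 3.95 to 4.50 (-0.10). In all, 5 of 5 atypical members had lower means, beside 56.2% of all genes, and 2 of the 5 separated the groups, beside 7.25% of all genes. The signs of Ackr1, Ackr2 and Ccrl2 depended on single livers: without SHH 26 Ackr1 was 0.085, and without SHH 28 Ackr2 was 0.018 and Ccrl2 0.081.

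Cxcl14, a chemokine of epithelia and stroma with a debated receptor, was 5.53, 5.20 and 4.80 in GFP and 5.92, 6.37 and 5.68 in SHH livers. All SHH livers were higher, and in contrast to the Cxcr3 ligands SHH 31 was the lowest of them. The difference was 0.81 (1.76-fold; 5.18 ± 0.37 against 5.99 ± 0.35, SD, n = 3; 95% interval 0.30 to 1.32; limma adjusted p = 0.512).

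Receptors of skin, mucosal and helper T cells gave small steps. Ccr8 was 2.84, 2.99 and 3.02 in GFP and 3.11, 3.33 and 3.10 in SHH livers, and its mouse ligand Ccl8 was 3.34, 3.25 and 3.36 against 3.57, 3.50 and 4.04. Both separated the groups, by 0.23 (95% interval -0.07 to 0.52) and 0.39 (0.02 to 0.75), and both lay below the array medians. Ccr8 was under the lower quartile of its array in every liver but SHH 28. Each step shrank without its highest SHH liver, Ccr8 to 0.15 without SHH 28 and Ccl8 to 0.22 without SHH 31. The other Ccr8 ligand, Ccl1, was 3.86, 4.20 and 4.22 against 3.97, 4.17 and 4.06, a difference of -0.03. Ccr10 was 3.70, 3.51 and 3.78 in GFP and 3.82, 4.002 and 4.25 in SHH livers, higher in all by 0.37 on average (0.03 to 0.70). Its ligands overlapped between groups. Ccl28 was 4.82, 4.73 and 4.80 against 4.74, 4.83 and 4.83, and Ccl27a was 4.89, 4.89 and 4.54 against 5.22, 4.82 and 4.94. Ccl27a was the 1 member with more than 1 probe set, and its difference of 0.22 was -0.18 with the other one.

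Ccr4, a receptor of type 2 helper and regulatory T cells, was 3.36, 3.40 and 3.34 in GFP and 3.17, 3.30 and 3.17 in SHH livers. The groups separated downward by only 0.15. Its ligand Ccl17 was 3.56, 3.60 and 3.38 against 3.11, 2.88 and 3.73, and Ccl22 was 3.44, 3.98 and 3.37 against 4.11, 3.20 and 4.03. These ligands differed by -0.27 and 0.18 with overlapping groups, or by -0.09 without SHH 28 and 0.015 without SHH 26.

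Ccl20, the single chemokine ligand of Ccr6, was 4.93, 5.14 and 4.85 in GFP and 4.74, 4.65 and 4.62 in SHH livers. All SHH livers were lower, by 0.30 on average (95% interval -0.59 to -0.01 for SHH minus GFP; adjusted p = 0.668). Ccr6, on B cells and interleukin-17-producing T cells, was 3.68, 3.25 and 3.49 against 3.36, 3.55 and 3.79, with overlap and a difference of 0.09. Ccl24, a ligand of the eosinophil receptor Ccr3 made by Kupffer cells, was 4.83, 5.13 and 4.64 against 5.19, 4.90 and 5.37 (difference 0.29, -0.10 to 0.68). Ccr3 itself was under the lower quartile on each array.

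Several homing and patrol pairs showed no separation. Cx3cr1, a receptor of patrolling monocytes and other mononuclear phagocytes, was 5.65, 5.48 and 5.49 in GFP and 5.38, 5.31 and 5.75 in SHH livers. Its ligand Cx3cl1 was 4.54, 4.94 and 4.70 against 4.55, 4.27 and 4.81. The differences were -0.06 (95% interval -0.40 to 0.28) and -0.19 (-0.58 to 0.20), unlike the positive value of the other monocyte receptor, Ccr2; the contrast between them was not tested. Ccr7, which guides cells to lymph nodes, was 4.84, 4.92 and 4.60 against 4.61, 4.90 and 4.89, a difference of 0.01 (-0.32 to 0.34). Ccl25, a gut homing ligand of Ccr9, was 6.22, 6.19 and 6.15 against 6.19, 6.19 and 6.01. Cxcl13, the B cell attractant, ranged from 5.59 to 7.71 in GFP and from 6.77 to 7.07 in SHH livers, with GFP 6 the highest of all 6, and its receptor Cxcr5 differed by 0.07. Xcl1, a product of T and natural killer cells, was 4.70 to 4.87 in GFP and 4.85 to 5.47 in SHH livers, highest in SHH 31. The members not yet given by value, Ccl11, Ccl26, Cxcl17, Ccr9 and Ccr1l1, had overlapping groups and differences between -0.33 (Ccr1l1) and -0.02 (Ccl11).

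Set side by side, ligands and receptors of a pair more often had the same sign than not. Among 29 pairs of 14 signalling receptors with 26 ligands, both means were higher in 18, both lower in 5, and signs were opposite in 6. Taken singly, 70.6% of ligands and 62.5% of signalling receptors had higher means, so shared signs alone do not show a link within pairs. Both partners separated the groups upward in 4 pairs: Ccr2 with Ccl2, Ccr1 with Ccl6, Ccr1 with Ccl9, and Ccr8 with Ccl8. By themselves, 14.7% of ligands and 31.2% of signalling receptors separated upward. Ccr1 and Ccr8 lay under the lower quartile of their arrays in every liver but SHH 28. Among the 14 pairs of atypical receptors, both were lower in 4 and signs were opposite in 10. Pairs share members, so these counts are not independent of each other and carry no test.

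**Figure D3:**
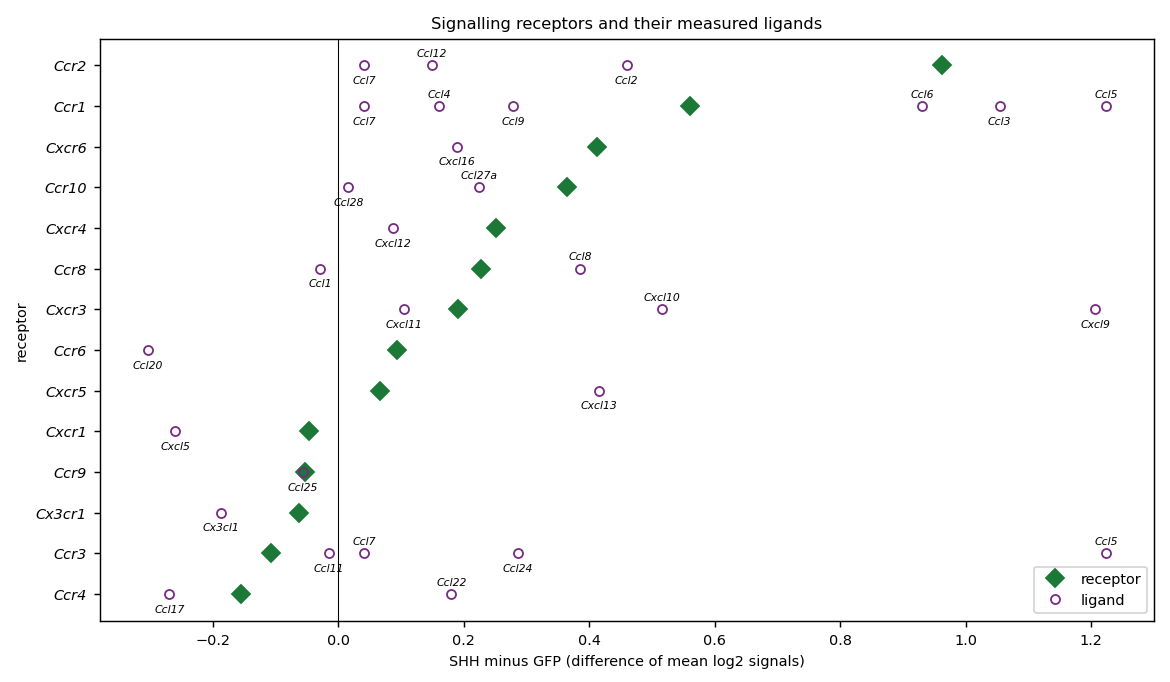
SHH minus GFP difference of mean log2 signals (n = 3 per group) for 14 signalling receptors (filled diamonds, ordered by their difference) and their measured ligands (open circles, named). Ccr2 (0.96) and Ccr1 (0.56) have the largest receptor differences and only higher ligands, Ccr6 (0.09) stands opposite Ccl20 (-0.30), and Ccr3 and Ccr4 are the receptors with negative values whose ligands lie on both sides of 0.

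The 3 SHH livers did not share one pattern. SHH 31 had the highest value of the SHH livers for 34 of 55 members (for 36.3% of all genes), SHH 28 for 13 (35.0%) and SHH 26 for 8 (28.7%). Measured from the GFP mean, the median member stood at 0.22 for SHH 31, at 0.04 for SHH 28 and at 0.04 for SHH 26, against -0.02, -0.02 and -0.03 over all genes. Cxcl1, Cxcl14, Ccr1, Ccr8 and Cxcr3 were highest in SHH 28, whereas Ccl3, Ccl5, Ccl6, Cxcl9, Cxcl10, Cxcl16, Ccr2 and Cxcr6 were highest in SHH 31.

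Most marker genes of leukocytes also had higher means, and their part in these values was not tested. The marker lists were chosen with earlier results of these data known, so their counts are a description. In whole liver, more cells of a type and more RNA per cell cannot be told apart. Neutrophil markers, 14 of 15 measured, had higher means in 14, and their average was 3.51 to 3.73 in GFP livers and 3.75, 4.60 and 4.53 in SHH livers, with S100a9 3.59-fold and Retnlg 2.92-fold higher. On this average SHH 28 was highest and SHH 26 lowest of the SHH livers, as for Cxcl1. With only 3 livers such orders coincide easily, and no link was tested. Cxcr1, a neutrophil receptor, was lowest in SHH 28. Single neutrophil markers varied: Retnlg was highest in SHH 28, but S100a9 (5.83 in SHH 28, 6.03 in SHH 31) and Itgam in SHH 31. T and natural killer cell markers, 17 of 20 measured, had 12 higher and 5 lower means. They averaged 4.01 to 4.15 in GFP and 4.30, 4.09 and 4.67 in SHH livers, so SHH 28 lay within the GFP range. The order of the SHH livers on this average was that of Ccl5 and Cxcl9, and no link was tested here either. Cd3g was 2.03-fold, Gzma 1.75-fold and Cd8a 1.46-fold higher, though Cd8a was lowest in SHH 26 among the SHH livers (4.21, 4.34 and 4.73).

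Monocyte markers (13 of 15 higher) averaged 5.08 to 5.31 in GFP and 5.30 to 6.08 in SHH livers, with Plac8 1.94-fold and Itgam 1.79-fold higher. Kupffer cell markers (14 of 14 higher) averaged 6.34 to 7.13 and 6.90 to 7.74, so the groups overlapped through GFP 6. Dendritic cell markers (7 of 11 higher, median difference 0.06; H2-Ab1 2.33-fold and H2-Aa 2.30-fold higher, Fscn1 lower, at a log2 difference of -0.26 with overlap) averaged 5.05 to 5.25 and 5.22 to 5.77. B and plasma cell markers (11 of 11 higher, but with a median difference of only 0.10, and Jchain 2.74-fold higher) averaged 5.14 to 5.21 and 5.36 to 5.68. Sinusoidal endothelial markers went the other way, with 2 of 12 means higher and averages of 6.63 to 7.13 against 6.35 to 7.03, lowest in SHH 28, and Tek 1.26-fold lower. Stellate cell and fibroblast markers (12 of 14 higher) averaged 6.32 to 6.34 and 6.44 to 6.62, platelet markers (6 of 6 higher) 4.46 to 4.83 and 4.64 to 4.94, and bile duct markers (4 of 7 higher) 3.96 to 4.15 and 4.04 to 4.16. None of these genes passed over all genes. Itgam counts in both the neutrophil and the monocyte list, and array signals give no true 0.

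**Figure D4:**
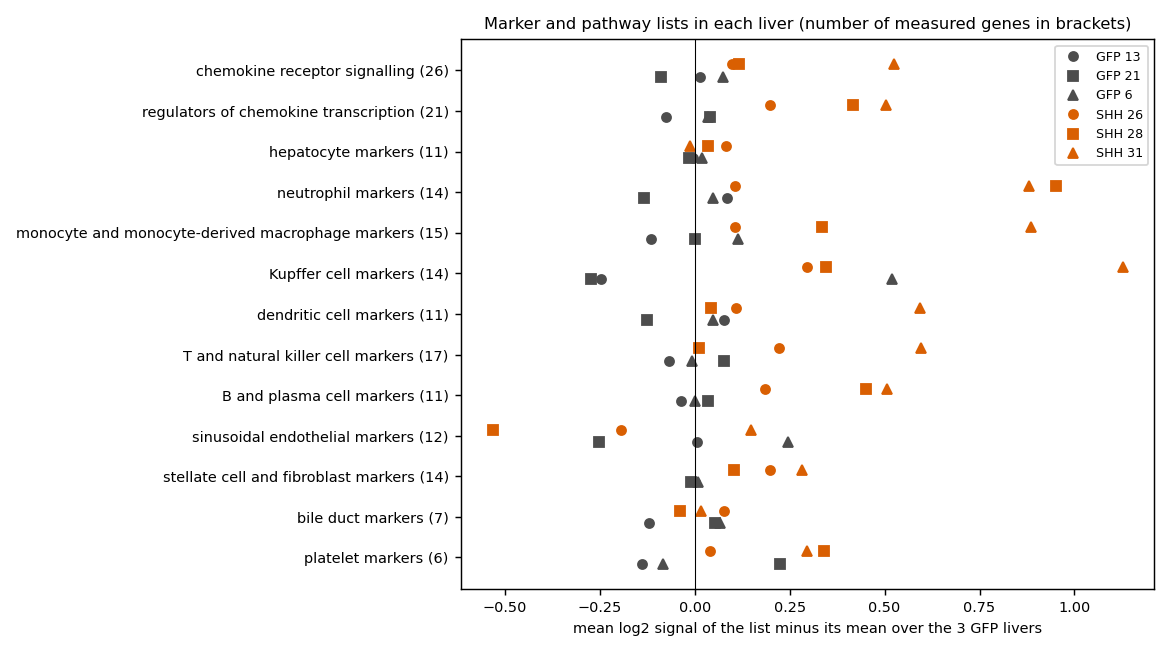
Mean log2 signal of each marker or pathway list in each liver, as the difference from its mean over the 3 GFP livers (GFP in grey, SHH in orange, shape by mouse; the number of measured genes is in brackets). SHH 31 is highest for most immune lists, SHH 28 is highest for neutrophil markers, SHH 26 lies nearest the GFP livers for neutrophil and monocyte markers, and the sinusoidal endothelial list is lowest in SHH 28.

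Genes that act below or above the chemokine system were mostly higher as well, with none past the threshold over all genes. These lists were chosen with earlier results of these data known, so their shares are a description and carry no test. Of 26 measured genes of receptor signalling, 20 had higher means (76.9%, against 43.8% of all genes) and 7 had an unadjusted p under 0.05 upward (26.9%, against 3.33%), with a median difference of 0.10. They included Dock2, an activator of Rac in leukocyte migration (1.88-fold higher; 4.43 to 4.72 against 5.09 to 6.27), Grk3, a kinase that desensitises receptors (1.61-fold), and the G protein regulator Rgs2 (1.64-fold). Of 21 regulators of chemokine transcription, 17 had higher means (81.0%) and 8 had an unadjusted p under 0.05 upward (38.1%), with a median of 0.26. The cytokine Il1b was 4.56, 4.55 and 5.13 in GFP and 5.68, 5.96 and 6.92 in SHH livers. Its receptor Il1r1 was 7.87, 8.46 and 7.68 against 9.22, 10.82 and 9.31, which is 3.43-fold higher and, as for Cxcl1, highest in SHH 28. Ifngr1, a chain of the interferon-gamma receptor, was 1.39-fold higher. Both groups of values were separate for all 3 genes. Of 11 chemokines and modifiers outside the symbol rule, 6 had higher means. Tpst2, which sulfates tyrosines of chemokine receptors, was 1.32-fold higher, the platelet chemokine Ppbp 1.29-fold higher with overlapping groups, and Mif, which binds Cxcr4, 1.13-fold lower.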

How the data were processed

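The authors deposited 1 table of log2 signals, 1 column per array, made with RMA per the submitters' processing notes. RMA corrects background, equalises array distributions and summarises probes, which can shrink differences of dim genes. No source used here gives its version or the genome build. Platform annotation named 1 gene for 23521 of 41345 probe sets.

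The groups were contrasted in limma (version 3.58.1, R 4.3.3; linear model with empirical Bayes variances, two-sided, without covariates or a level filter) over 22180 genes, with Benjamini-Hochberg adjustment over all of them. Folds are 2 to the power of the log2 difference. Intervals are 95%, and spreads are SD over 3 mice. The 3 arrays per group limit the precision, since an exact permutation test of 3 against 3 cannot go below 0.1. The script was tested on simulated data.

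Values in every mouse are given for members without overlap or with an unadjusted p under 0.05, their paired ligands or receptors, and a fixed set of best known members. Up to 3 genes per list are named, by smallest p, with Shh and Hhip. Symbols were compared with RefSeq (0 changed). Members, pairs and lists were chosen with earlier results of these data known. Alternatives were other probe set rules, a level filter, other normalizations, priors and weights, and each mouse left out.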

Additional observations from a re-analysis of the deposited data

How the results depend on the processing

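The groups share no mouse numbers, so nothing was paired. With 1 mouse left out in turn, genes called over all genes were 0 to 30 higher and 0 to 16 lower, the upper ends without SHH 26, and members called were 0 to 1 higher (Ccr2) and 0 lower. Members at an unadjusted p under 0.05 were 6 to 13 higher and 1 to 4 lower, members whose groups did not overlap 10 to 17 higher and 5 to 9 lower, and the median difference -0.00096 to 0.118. At that p, all genes gave 2.73% to 4.08% higher and 2.85% to 4.22% lower. Separation was 18.2% to 30.9% of members upward, against 8.99% to 10.7% of all genes. Downward it was 9.09% to 16.4% of members, around the 11.5% to 14% of all genes. With only genes above the median level, which kept 26 of 55 members, 5 members were higher and 2 lower at that p. Groups did not overlap for 4 upward and 2 downward, and the median difference was 0.207. Shares of all genes under this filter are not given here, and the cause of the higher median was not tested. Equal array medians gave 2 lower at that p and a second quantile normalization 3 lower without overlap; the cause was not tested. Of the 55 members, 34 kept their sign under every one of the 14 alternatives that gave a value for them. Leaving out mice turned the sign of 20, over the ranges -0.068 to 0.085 (Ackr1), -0.255 to 0.018 (Ackr2), -0.15 to 0.034 (Ccl1), -0.11 to 0.069 (Ccl11), -0.087 to 0.0033 (Ccl25), -0.16 to 0.052 (Ccl26), -0.0093 to 0.048 (Ccl28), -0.10 to 0.36 (Ccl4), -0.11 to 0.28 (Ccl7), -0.019 to 0.20 (Ccr6), -0.085 to 0.10 (Ccr7), -0.23 to 0.0401 (Ccr9), -0.20 to 0.081 (Ccrl2), -0.20 to 0.021 (Cx3cr1), -0.14 to 0.93 (Cxcl10), -0.033 to 1.02 (Cxcl13), -0.076 to 0.31 (Cxcl15), -0.059 to 0.34 (Cxcl16), -0.11 to 0.20 (Cxcl2) and -0.30 to 0.21 (Cxcr1). Other settings turned 4: Ackr1 was 0.015 with a second quantile normalization, Ccl27a -0.18 with the probe set of largest interquartile range, and Cxcl2 -0.042 and Cxcr1 0.087 with array weights. Low signal limits the 5 members that stayed under the lower quartile of every array. It also limits Ccr1 and Ccr8, which exceeded that quartile in SHH 28 alone.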
